A study of Homo sapiens with 6 samples.

Results

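The genes described here mark the secretory, ciliated and alveolar cell types of the lung, and the data are the chromatin intervals called around them in Calu-3, an established human line from a lung adenocarcinoma. They are 5 genes of serous gland cells (LTF, PIGR, SLPI, WFDC2 and LYZ), 1 of club cells (SCGB1A1), 1 of ciliated cells (FOXJ1) and 2 of alveolar type II cells (SFTPB and SFTPC). These classes are the labels under which the genes were chosen. Whether a gene is limited to its class was not tested, so serous and other windows are not a contrast of cell types. A member is any interval that shares at least 1 bp with a window of 100 to 130 kb around a gene, set from the gene span plus about 50 kb on each side in hg19. The 9 windows held 57 of the 73341 intervals of the series: 1 of 1537 EHF peaks of replicate 1, 5 of 5216 EHF peaks of replicate 2, 30 of 31950 H3K4me1 regions and 21 of 34638 H3K27ac regions. The intervals come from chromatin immunoprecipitation followed by sequencing (ChIP-seq) of Calu-3 cells grown in low-glucose medium with serum, with no treatment or genetic change in the labels. EHF has 2 replicate libraries, and H3K4me1 and H3K27ac have 1 library each. Each EHF library was called against the first input and each histone library against the second. The library depth was 8418631 to 21426939 tags.

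EHF (Ets homologous factor) is an ETS transcription factor of epithelia. Proteins of the ETS family bind DNA around a GGAA core. H3K27ac is found at active promoters and enhancers, and H3K4me1 at enhancers and beside active promoters. Serous cells of the airway submucosal glands secrete antimicrobial proteins and protease inhibitors, club cells line the small airways, ciliated cells move mucus, and alveolar type II cells make surfactant. The lists hold no RNA measurement, so whether Calu-3 expresses any of these genes was not measured here.

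The windows were searched without an hg19 gene annotation, so a gene is placed by its window alone: the window less its flanks of 50 kb, widened by 10 kb on each side because the window ends are rounded. An interval in that stretch is said to lie at the gene position. Whether it covers the promoter, an intron or a neighbouring gene was not analysed here. Gene neighbours are given by their order in a RefSeq table of the assembly GRCh38.p14.

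RefSeq promoters (250 bases before to 50 after a start, GRCh38.p14) were found for 4 of the 9 genes, LTF, PIGR, WFDC2 and SFTPB, with 7 entries in all. None was matched for SLPI, LYZ, SCGB1A1, FOXJ1 or SFTPC. The promoters of PIGR, WFDC2 and LTF are printed 5′ to 3′ along the gene, with GGAA and its reverse complement TTCC in capitals, because they differ in what was called around them. PIGR, at chr1:206946417-206946716 on the minus strand, is the gene whose window held an EHF site in both replicates. WFDC2, at chr20:45469503-45469802 on the plus strand, had no EHF peak and a single H3K27ac region. LTF, here at chr3:46485185-46485484 on the minus strand, had no interval of any list at the gene position. The other LTF entries lie lower on the chromosome, from 46464856 and from 46463605. The promoters are placed in GRCh38.p14 and the calls in hg19. Whether the printed LTF promoter lies within the gene position was therefore not analysed here.
PIGR: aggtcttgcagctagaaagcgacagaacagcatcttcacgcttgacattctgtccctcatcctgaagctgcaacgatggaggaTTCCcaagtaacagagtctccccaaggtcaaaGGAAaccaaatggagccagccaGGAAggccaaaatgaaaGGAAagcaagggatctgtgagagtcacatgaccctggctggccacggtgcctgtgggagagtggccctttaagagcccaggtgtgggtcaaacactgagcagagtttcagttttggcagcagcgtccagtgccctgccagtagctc
WFDC2: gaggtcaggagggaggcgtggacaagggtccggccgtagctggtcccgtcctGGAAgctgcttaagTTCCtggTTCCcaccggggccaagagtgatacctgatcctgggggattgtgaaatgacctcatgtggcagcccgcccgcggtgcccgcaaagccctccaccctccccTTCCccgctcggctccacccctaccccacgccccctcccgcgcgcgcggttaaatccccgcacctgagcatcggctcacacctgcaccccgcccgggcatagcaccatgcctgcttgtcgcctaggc
LTF: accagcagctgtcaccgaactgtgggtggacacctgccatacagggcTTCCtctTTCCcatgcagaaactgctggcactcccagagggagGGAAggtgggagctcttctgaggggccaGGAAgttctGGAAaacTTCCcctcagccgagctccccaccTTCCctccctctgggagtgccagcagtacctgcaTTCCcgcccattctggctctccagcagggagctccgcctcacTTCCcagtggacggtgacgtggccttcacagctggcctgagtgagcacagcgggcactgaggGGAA
The PIGR and WFDC2 promoters each held 4 matches to GGAA on either strand, and this LTF promoter held 10. It is the LTF entry with the most matches, so its count does not stand for the gene. The other 2 LTF entries held 3 and 7, and the SFTPB entries held 0 and 5. Of 34796 promoters of the same length, 95.5% held at least 1 match, with a median of 3. The longer sequence GGAAGT, searched on both strands and overlapping the GGAA matches, was found in 22.8% of them. GGAAGT had 3 matches in the LTF promoter shown, 1 in another LTF entry and 0 in the remaining LTF entry. It had 0 in the promoters of PIGR, WFDC2 and SFTPB. A match is a description of the letters and not a site, and no EHF peak was called in the LTF window.

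EHF peaks were called at 3 of the 5 serous genes, PIGR, SLPI and LYZ, and in none of the windows of LTF, WFDC2, SCGB1A1, FOXJ1, SFTPB or SFTPC. Within 50 kb outside the windows, however, EHF peaks lay beside those of LTF, WFDC2, SFTPB and SFTPC. Their absence at these genes thus depends on the window size. Of the 6 peaks inside the windows, 5 lay at a gene position and 5 overlapped an H3K27ac region. Without the widening by 10 kb, 1 peak at PIGR, 1 at LYZ and 0 at SLPI lay at a gene position. For comparison, 8 of 21 H3K27ac regions and 11 of 30 H3K4me1 regions in the windows lay at a widened gene position. As background, 14.2% of all 100 kb bins of the genome held an EHF peak of either replicate (4.49% in replicate 1 and 12.8% in replicate 2), and 27.3% of the bins that held an interval of any list did. In bins of 30 kb, nearer to the size of a gene position, the share was 5.09%. The 9 windows were chosen around genes, so the bins are not a matched set, and no test was made of the count of 3 in 9. The score used below is the authors' tag count of an interval scaled to a library of 10000000 tags. Its 95% interval is an exact Poisson interval and covers counting error only.

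The window of PIGR, the receptor that carries polymeric immunoglobulins across epithelia, held the only EHF site called in both replicates. The replicate 1 peak at 207126593 to 207126743 on chromosome 1 scored 12 (95% interval 6.09 to 20.6), and 22.3% of the peaks of that list scored as high. The replicate 2 peak at 207126615 to 207126739 scored 11 (4.89 to 20.3), and 68.6% of its list scored as high. The peak centres were 9 bp apart. The site lay 6593 bp above the unwidened gene position in replicate 1 and 6615 bp above it in replicate 2. FCAMR is the next gene on that side, so that the gene the site belongs to cannot be told from these lists. The site counts as at the gene position only through the widening. As background, 2.36% of the 100 kb bins held such a shared site, and 14.7% of all replicate 2 peaks were found in replicate 1. From the side of replicate 1, 768 of its 1537 peaks were found in replicate 2. The replicate 1 peak at PIGR was the only one in the 9 windows, so for that peak a match in replicate 2 was common. The site lay inside the widest H3K27ac region of the 9 windows, at 207123544 to 207128737, which was 5194 bp wide with a score of 278 (256 to 301). Of all H3K27ac regions, 4.80% were as wide and 5.42% scored as high. This H3K27ac region lay 3544 bp above the unwidened gene position. Both EHF peaks also overlapped an H3K4me1 region of 1240 bp with a score of 28 (19.4 to 38.4). As background, 10.1% of all peaks of replicate 1 and 7.98% of those of replicate 2 overlapped H3K4me1. The site thus carried both marks, and its centre lay 2069 bp from the nearer end of the H3K27ac region in replicate 1.

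A second EHF peak at PIGR, at 207115365 to 207115489, was called in replicate 2 alone. It scored 10 (4.10 to 18.7), and 86.0% of its list scored as high. It lay in the H3K27ac region at 207114404 to 207116141, 1738 bp wide with a score of 50 (40.9 to 60.3). An H3K4me1 region of 634 bp with a score of 18 ended 342 bp below its centre. This EHF peak and both of its mark regions overlapped the gene position before widening. The third H3K27ac region of the window, 501 bp wide with a score of 8, lay 38742 bp above that position, where FCAMR is the next gene. PIGR had 4 of the 11 H3K4me1 regions found at gene positions, more than any other of the 9 genes. Only 1 of the 4 overlapped the position before widening. The gene positions differ in length, and that of SLPI, which had 3, was shorter than that of PIGR, so the order does not rank density.

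SLPI encodes an inhibitor of neutrophil elastase secreted onto mucosal surfaces. Its replicate 2 EHF peak at 43883185 to 43883309 on chromosome 20 scored 12 (5.70 to 21.8), and 53.9% of the list scored as high. It lay 3185 bp above the unwidened gene position and counts as at the gene position only through the widening. That peak lay near the middle of the H3K27ac region at 43881705 to 43884590, with its centre 1542 bp from the lower end and 1343 bp from the upper. The region was 2886 bp wide with a score of 144 (129 to 161), and 16.8% of all H3K27ac regions were as wide. H3K4me1 flanked this peak on both sides without covering it. The region below, at 43881543 to 43882220, ended 1027 bp from the peak centre and scored 12. The region above, at 43883675 to 43884713, began 428 bp from it and scored 39 (29.2 to 51.6). This was the highest H3K4me1 score in the 9 windows, where the other 29 regions scored 10 to 28, and 6.13% of the whole list scored as high.

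The other SLPI peak, at 43858249 to 43858373, was the single EHF peak of the 9 windows outside H3K27ac. It scored 11 (4.89 to 20.3) in replicate 2 and lay 21627 bp below the unwidened gene position, with the nearest H3K27ac region 23332 bp away and the nearest H3K4me1 region 18886 bp away. SEMG2 is the next protein-coding gene on that side in RefSeq order. The nearest EHF peak of replicate 1 to the SLPI window lay 24479 bp outside its lower edge.

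LYZ, which encodes lysozyme, had the most H3K27ac of the 9 windows and 1 EHF peak. The replicate 2 peak at 69741987 to 69742111 on chromosome 12 scored 11 (4.89 to 20.3). It lay in the H3K27ac region at 69740731 to 69744744, 4014 bp wide with a score of 186 (168 to 205), and its centre was 1318 bp from the lower end. An H3K4me1 region of 501 bp with a score of 15 (8.81 to 22.8) lay in the same H3K27ac region and ended 716 bp below the peak centre. This peak, like both of those marks, overlapped the gene position before widening. The nearest replicate 1 peak lay 926191 bp above the window.

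The peaks at SLPI and LYZ and the second peak at PIGR were not called in replicate 1. The lists give no tag count where nothing was called, so a weaker signal at these places in replicate 1 cannot be told from none. Of the 2274 replicate 2 peaks with scores of 10 to 12, the range of all 5 replicate 2 peaks in the windows, 185 or 8.14% were found in replicate 1 (exact 95% interval 7.04% to 9.34%). The 6 EHF peaks in the windows make up 5 sites, since PIGR's shared site counts in both lists, and 4 of the 5 sites overlapped H3K27ac. As background, 60.8% of all replicate 1 peaks and 63.8% of all replicate 2 peaks did so.

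**Figure D1:**
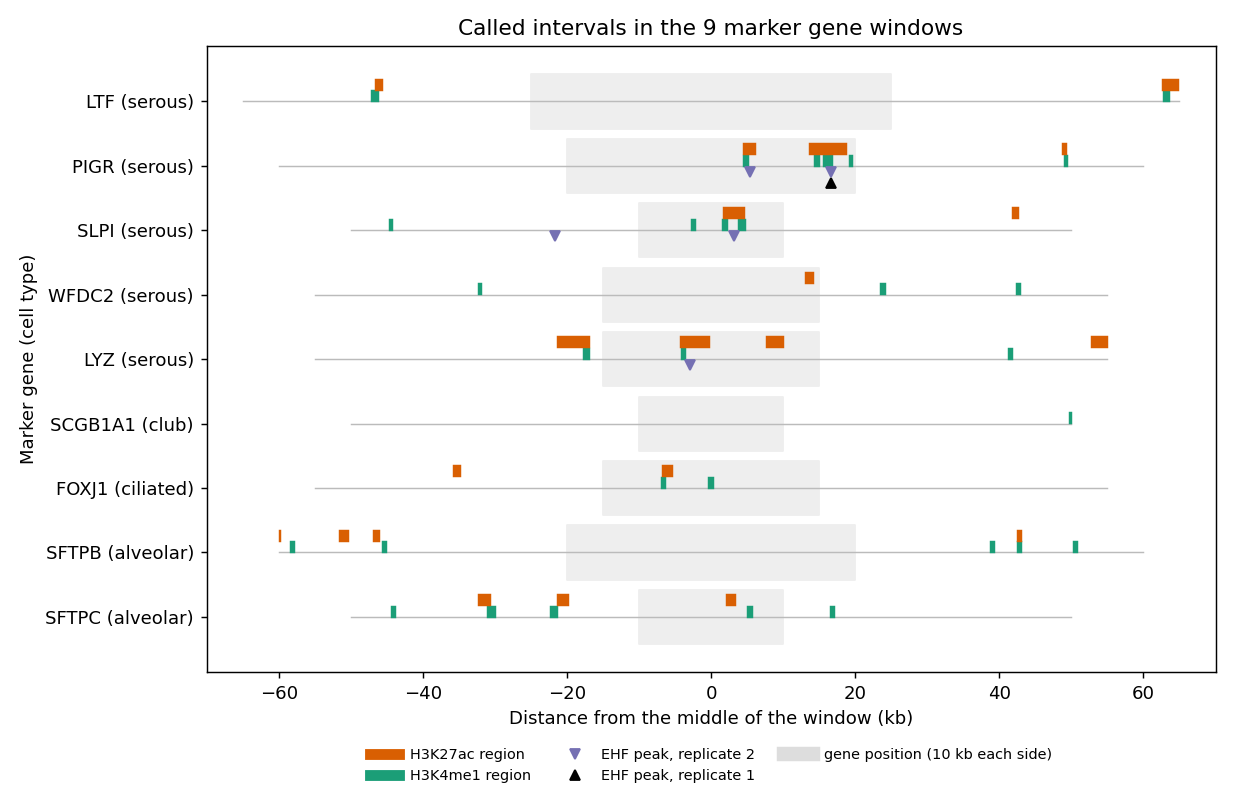
Map of the called intervals in the 9 windows, with distance from the middle of the window in kb on the horizontal axis and 1 row per gene. Orange and green bars are H3K27ac and H3K4me1 regions to scale, triangles are EHF peaks of each replicate, grey lines span the windows and grey boxes the gene positions with 10 kb on each side. EHF peaks are seen at PIGR, SLPI and LYZ, and the boxes of LTF, SCGB1A1 and SFTPB are empty.

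H3K27ac regions were called at the gene position of 6 of the 9 genes: PIGR, SLPI, WFDC2, LYZ, FOXJ1 and SFTPC. LTF, SCGB1A1 and SFTPB had none there. As background, 23.1% of 30 kb bins of the genome held an H3K27ac region, where the gene positions with their rounding span 20 to 50 kb. Over the whole windows, 8 of 9 held an H3K27ac region, as did 87.1% of the 100 kb bins with an interval of any list. The 8 widest of the 21 regions all lay in serous windows. Those in serous windows were 501 to 5194 bp wide, with scores of 8 to 278. Those in the club, ciliated and alveolar windows were 501 to 1670 bp wide, with scores of 7 to 47. Both ranges overlap at their lower ends. The median width was 2300 bp over 12 serous regions and 1220 bp over 9 others, against 1370 bp in the whole list. By score per kb of region, 10 of the 12 serous regions and 3 of the 9 others reached the list median of 27.9. With 1 H3K27ac library and chosen genes no test was made of this difference.

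By bases, H3K27ac covered 5.02% of the serous windows and 2.22% of the others. The LYZ window led with 11.9%, and 3.80% of all 100 kb bins were covered as much. PIGR followed with 6.19% (10.3% of bins as much), then SFTPC with 4.40% (14.9%) and SLPI with 3.67% (17.8%). LTF had 2.56% (23.9%), SFTPB 2.34% (25.3%) and FOXJ1 2.14% (26.8%), near the mean of 2.10% over all bins, and WFDC2 had 0.971% (37.7%). The SCGB1A1 window had no H3K27ac region, and the nearest one ended 34324 bp below it. The serous and other windows therefore overlap in coverage: the alveolar gene SFTPC lay above SLPI, and the serous gene WFDC2 below all but SCGB1A1.

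**Figure D2:**
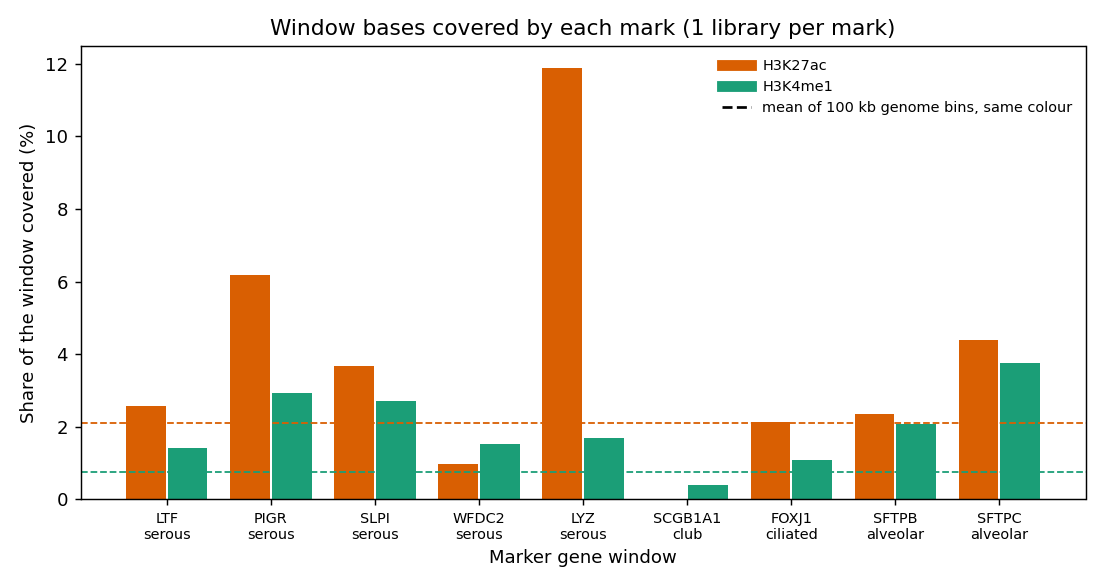
Share of each window covered by H3K27ac (orange) and H3K4me1 (green) regions in percent, for the 9 windows, with 1 library per mark and so no error bars. The dashed lines are the means over all 100 kb bins of the genome, 2.10% and 0.764%. LYZ has the tallest H3K27ac bar at 11.9%, SCGB1A1 has none, and SFTPC has the tallest H3K4me1 bar at 3.75%.

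The LYZ window held 4 H3K27ac regions, each wider than the list median. Besides the region with the EHF peak, one at 69723585 to 69728108 was 4524 bp wide with a score of 259 (238 to 281), and it lay 11892 bp below the unwidened gene position. Another at 69752618 to 69754921 was 2304 bp wide with a score of 156 (140 to 174). Its 67.7 per kb was the highest density of the 21 regions, and 5.37% of the list was as dense. It lay 2618 bp above the unwidened gene position, and YEATS4 is the next gene on that side, so that the gene it belongs to cannot be told from these lists. The region at 69797742 to 69800338 scored 127 and crossed the upper edge of the window. The 3 H3K4me1 regions of the LYZ window scored 12, 15 and 16 and covered 1.68% of it, the median of the 9 windows.

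LTF, the iron-binding antimicrobial protein lactoferrin, had no call near the gene. Its window held 2 H3K27ac and 2 H3K4me1 regions in overlapping pairs near the 2 edges. The lower pair, an H3K27ac region at 46448322 to 46449358 with a score of 22 (16.1 to 29.2) and an H3K4me1 region with a score of 21 (13.7 to 30.2), lay about 31 kb below the unwidened gene position on the side of CCRL2. The upper pair, with an H3K27ac region of 2291 bp and a score of 79 (67.4 to 91.7), lay 47508 bp above it on the side of RTP3. The nearest EHF peaks lay outside the window, 19824 bp below it in replicate 1 with a score of 8 and 179924 bp below it in replicate 2 with a score of 14.

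WFDC2, a secreted protein with the same kind of whey acidic protein domains as SLPI, had a single H3K27ac region. It lay at 44118093 to 44119160 on chromosome 20, 8093 bp above the unwidened gene position, and was 1068 bp wide with a score of 32 (25.1 to 40.8). The region counts as at the gene position only through the widening. SPINT3 is the next protein-coding gene on that side, so that the gene it belongs to cannot be told from these lists. The 3 H3K4me1 regions of the window scored 11 to 15, and each lay at least 9290 bp from H3K27ac. The marks thus shared no base in this window, as in that of SCGB1A1. A wider H3K27ac region, of 1280 bp with a score of 63, lay 4614 bp below the window and is not counted in its coverage of 0.971%.

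SCGB1A1, the secretoglobin that defines club cells, had the emptiest window. It held 1 interval, an H3K4me1 region of 654 bp with a score of 15 (8.81 to 22.8) that crossed the upper edge, on the side of AHNAK. The nearest EHF peaks lay 149374 bp above the window in replicate 2 and 255074 bp above it in replicate 1. As background, 45.4% of all 100 kb bins held an H3K27ac region.

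FOXJ1, the transcription factor that directs the making of motile cilia, had both marks at the gene position but no EHF peak. The H3K27ac region at 74128135 to 74129593 on chromosome 17 was 1459 bp wide and scored 33 (25.9 to 41.8). It lay 407 bp below the unwidened position and overlapped an H3K4me1 region with a score of 12. A further H3K4me1 region at 74134518 to 74135219, with a score of 15 (8.81 to 22.8), lay within the unwidened position, 4925 bp from H3K27ac. The other H3K27ac region of the window, with a score of 39 (31.3 to 48.5), lay 29854 bp below on the side of EXOC7. The nearest EHF peaks in both replicates lay about 386 kb below the window, where the intervals 73693448 to 73693598 of replicate 1 and 73693415 to 73693539 of replicate 2 overlap.

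The surfactant genes differed from each other. SFTPB, whose protein is needed to spread the surfactant film, had no call at its gene position. Its window held 4 H3K27ac regions with scores of 7 to 37 and 5 H3K4me1 regions, each of the minimal width of 501 bp with scores of 10 or 11. The nearest H3K27ac region to the gene position lay 32487 bp above the unwidened position and scored 7 (3.92 to 11.5), close to the list minimum of 6. The other 3 lay 36056 to 49765 bp below the unwidened position. The nearest EHF peak of replicate 2 lay 19725 bp above the window, scored 11 and overlapped H3K27ac. That of replicate 1 lay 633094 bp below the window and scored 9.

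SFTPC, whose product is made almost only by alveolar type II cells, had an H3K27ac region at 22022145 to 22023394 on chromosome 8. It was 1250 bp wide and scored 25 (18.9 to 32.9), and 62.2% of the list scored as high. It lay 2145 bp above the position the window gives, with LGI3 next below the gene and BMP1 next above, so that its gene cannot be told from these lists. An H3K4me1 region with a score of 15 (8.81 to 22.8) lay 1584 bp from it. The window's 5 H3K4me1 regions covered 3.75%, the highest share of the 9, and 5.23% of all bins were covered as much. The 2 with the highest scores, 27 (18.8 to 37.5) and 23 (15.6 to 33.0), lay 21389 and 29997 bp below the position given by the window.

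H3K4me1 regions were called in all 9 windows, against 72.6% of the 100 kb bins with an interval of any list and 37.8% of all 100 kb bins. It was found at the gene position of 5 genes, PIGR, SLPI, LYZ, FOXJ1 and SFTPC, against 18.5% of 30 kb bins. It covered 2.03% of the serous windows and 1.83% of the others. After SFTPC with 3.75%, the shares were 2.93% for PIGR, 2.72% for SLPI and 2.09% for SFTPB, which 7.6%, 8.33% and 11.7% of all 100 kb bins reached. LYZ had 1.68%, WFDC2 1.52%, LTF 1.41% and FOXJ1 1.09%, reached by 14.4%, 15.7%, 17.2% and 20.6% of bins, and SCGB1A1 had 0.398%, reached by 37.7%. The 30 regions were 501 to 1240 bp wide, with a median score of 12 against 14 in the whole list, and 16 had the minimal width of 501 bp. Of the 17 H3K4me1 regions in serous windows, 10 overlapped H3K27ac, as did 3 of the 13 in the others. The share over all H3K4me1 regions was 45.2%. In the other direction, 8 of 12 serous and 3 of 9 other H3K27ac regions overlapped H3K4me1, against 34.5% of the whole list. PIGR alone held 4 of the 10 and 3 of the 8, and 2838 of the 8268 bp that carried both marks in the 9 windows.

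**Figure D3:**
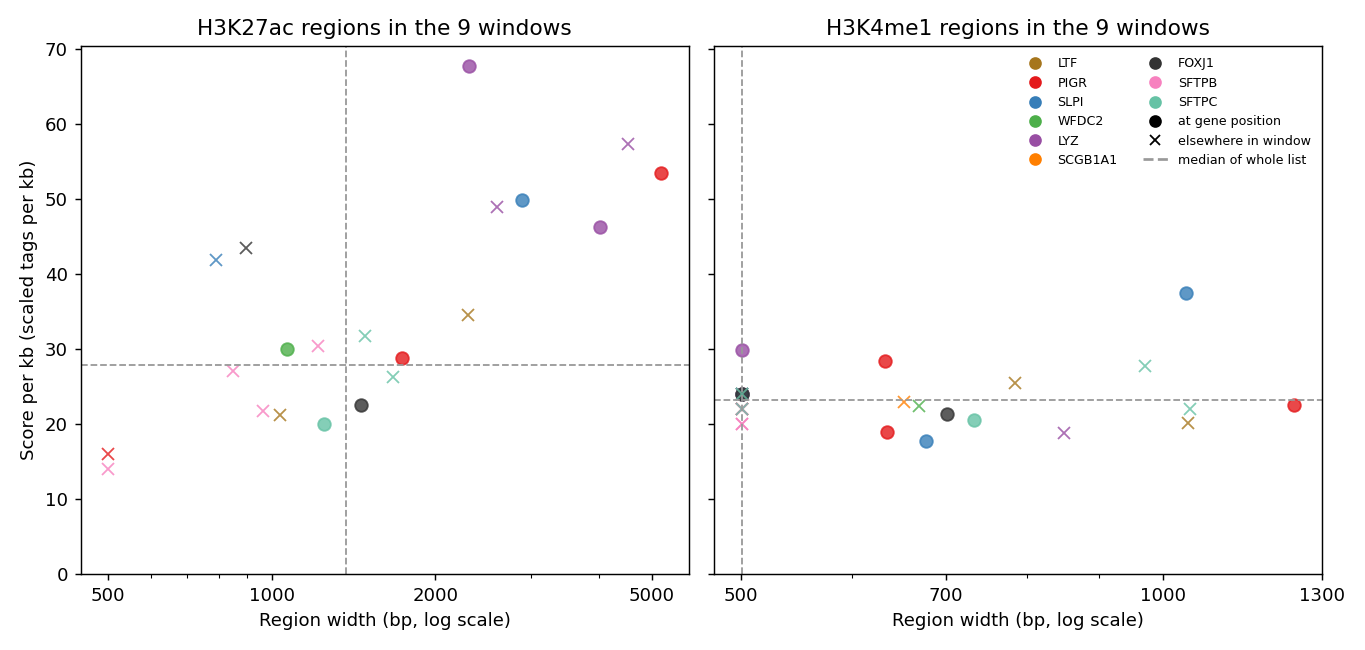
Score per kb (scaled tags per kb of region) against region width in bp on a log axis, for the 21 H3K27ac regions (left) and 30 H3K4me1 regions (right), coloured by gene. Circles lie at a gene position and crosses elsewhere in the window, dashed lines are the medians of the whole lists, and some H3K4me1 points of 501 bp coincide. The H3K27ac regions of LYZ, PIGR and SLPI reach the upper right, up to 5194 bp and 67.7 per kb.

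The window edges decide some members. Of the 57 intervals, 3 crossed an edge: 2 H3K27ac regions, at LYZ and SFTPB, and the H3K4me1 region at SCGB1A1. The EHF peaks inside lay at least 28249 bp from an edge. Just outside were a replicate 1 peak with a score of 8 at 1276 bp above the WFDC2 window, a replicate 2 peak with a score of 10 at 2984 bp below the SFTPC window and one with a score of 11 at 5204 bp below the WFDC2 window. The last 2 overlapped H3K27ac. Within 50 kb outside the 9 windows there were 4 peaks of replicate 1 and 6 of replicate 2. They lay beside the windows of LTF, PIGR, SLPI, WFDC2, LYZ, SFTPB and SFTPC, with none beside those of SCGB1A1 and FOXJ1. Of these peaks, 1 of replicate 1 and 4 of replicate 2 overlapped H3K27ac.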

How the data were processed

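The submitters' processing notes name Bowtie 1.0.0, HOMER 1.2 and the build hg19. HOMER findPeaks was run on each library alone against its input, per the file headers, with a false discovery rate of 0.01 and 4-fold enrichment over the input. EHF peaks have a fixed size, and mark regions were stitched from windows of 500 bp, which sets their least width. The deposited score of an interval is its tag count scaled by the authors to 10000000 tags and rounded, with no input subtracted, and not corrected for copy number here. It was used within a list only.

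Intervals were assigned to the windows, compared by overlap of at least 1 bp and set against consecutive bins of 100 kb and 30 kb from the first base of each chromosome to its furthest interval, with Python 3.11.15, numpy 2.4.6, scipy 1.17.1 and pandas 2.3.3. The interval functions were tested on simulated data. No hypothesis test was made: each mark has 1 library, and the genes are not replicates. No label tells if the 2 EHF libraries are of different cultures. Tags from amplified libraries are not independent molecules, so intervals cover counting error only. The genes, windows and comparisons were chosen with earlier results of these data known. All 9 genes and every EHF peak in their windows are named. Of the mark regions, those named are the widest, the highest in score and the nearest to the gene, with others added after their values were seen. Further marker genes were listed but not analysed here, for want of an hg19 annotation. Alternatives changed the window, the overlap, the score minimum, the gaps and the bins. The reads and inputs were not used here.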

Additional observations from a re-analysis of the deposited data

How the results depend on the processing

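Of 42 alternative values, 19 stayed within 1.5 times the main count or within the main share's binomial interval, and 23 moved. Larger bins, or only bins with an interval, raise the share of bins by construction, so these alternatives were all but bound to move. A binomial interval on a coverage share is narrow because it takes neighbouring bases as independent. The 23 is thus no measure of how far the results depend on the processing. The window size set most counts. With 25 kb taken off each side, 10 H3K27ac and 15 H3K4me1 regions remained in the windows and H3K27ac coverage was 4.71%. With 50 kb added, there were 45 H3K27ac regions, 58 H3K4me1 regions and 16 EHF peaks, and coverage was 5.44% and 2.55%, against 3.82% and 1.94% in the windows as given. With scores at or above the list median there were 11 H3K27ac and 13 H3K4me1 regions, and 3 genes with H3K27ac at the gene position, PIGR, SLPI and LYZ. Without the widening by 10 kb, 2 genes, PIGR and LYZ, had H3K27ac there, and 3, PIGR, LYZ and FOXJ1, had H3K4me1. An EHF peak remained there at PIGR and LYZ but not at SLPI. For SLPI, SCGB1A1 and SFTPC the unwidened position is a single point, so this alternative nearly fixes their loss. Leaving out an EHF replicate left 1 to 5 peaks, with 80.0% to 100% of them in H3K27ac. Bins of 130 kb held a list's intervals in 5.68% (EHF replicate 1), 15.8% (EHF replicate 2), 43.1% (H3K4me1) and 50.8% (H3K27ac) of cases, and bins with an interval of any list in 8.63%, 24.6%, 72.6% and 87.1%, against 4.49%, 12.8%, 37.8% and 45.4% of all 100 kb bins. The cause was not tested beyond these constructions. The shared EHF site of PIGR was found under each window and overlap tried. Low tag numbers limit the EHF calls: the 6 peaks rest on about 8 to 12 tags each. No paired analysis was possible because replicate numbers are given for EHF alone and nothing was fitted.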

Other observations

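The stretch between the SLPI and WFDC2 windows, from 43930000 to 44050000 on chromosome 20, was examined after its values were seen. RefSeq order places MATN4, RBPJL, SDC4, SYS1, TP53TG5, DBNDD2 and PIGT between the 2 genes. H3K27ac covered 14.1% of the stretch and H3K4me1 9.99%, against 3.67% and 2.72% of the SLPI window and 0.971% and 1.52% of the WFDC2 window. Of all 100 kb bins, 2.73% were covered as much by H3K27ac and 0.524% by H3K4me1. Its widest H3K27ac region, at 43965566 to 43977362, was 11797 bp wide with a score of 1068 (Poisson 95% interval 1020 to 1110). It overlapped an H3K4me1 region of 6327 bp with a score of 243 (217 to 272), which ranked 7 in the whole H3K4me1 list. A replicate 2 EHF peak with a score of 14 (7.37 to 24.9) lay in the same H3K27ac region. A further EHF site, at 43991542 to 43991692 in replicate 1 and 43991496 to 43991620 in replicate 2, had scores of 13 and 10, inside H3K27ac at 43990982 to 43992369. The widest H3K27ac region of the stretch had 90.5 scaled tags per kb, against 49.9 per kb for the H3K27ac region at the SLPI gene position.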
